A study of Mus musculus with 12 samples.

Results

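The rows described here are the 37 rows of the mitochondrial genome in a table of read counts, chosen as every row whose gene symbol starts with mt-, out of 12145 rows in all. They comprise 2 rRNA rows, 22 tRNA rows and 13 protein rows, of which 28 lie on the annotated plus strand and 9 on the minus strand. The RNA came from cortical cultures of C57BL6 mouse embryos, taken at embryonic stage E16.5-E17.5. The cultures carried a lentivirus for miR-29 (named miR-29c in the labels), a microRNA, or an empty lentivirus. All cultures were infected on day in vitro 6 at a multiplicity of infection of 2, and on day 14 all were rinsed with the buffer used for oxygen-glucose deprivation (OGD), a culture model of ischemia. The sham-empty and sham-miR-29 groups then stayed in normal oxygen, and the OGD-empty and OGD-miR-29 groups lost oxygen and glucose for 3 h and recovered for 4 h. Replicates were cultures dissected on different days. Total RNA was DNase treated and depleted of ribosomal RNA before library construction. Of 12 libraries, 11 were used, because the column of sham-empty replicate 3 did not hold read counts, so n = 2 for sham-empty and n = 3 for each other group.

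Mitochondrial DNA is a small circle that codes for the 2 RNAs of the mitochondrial ribosome, a set of tRNAs, and proteins of the respiratory chain and ATP synthase. Each strand is transcribed as a long polycistronic RNA that is cut at the tRNAs, so neighbouring genes share a primary transcript. Neurons depend on oxidative phosphorylation, and the protein products of these genes are core subunits of its enzymes. Among these, cytochrome c oxidase uses the oxygen that OGD removes.

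The rows could not be read as 37 separate measurements. In the deposited column of sham-empty replicate 3, the value of 37 of 37 rows equalled a tally of same-strand gene annotations (GENCODE M21, GRCm38) from the start of the gene to a point 10 kb beyond its end. The counts of the other libraries nested as windows of that reach would. Along the plus strand from mt-Co1 to mt-Tt (18 rows) and along the minus strand from mt-Ts1 to mt-Tq (6 rows), each row held at least the count of the next row within its window. This was so in 242 of 242 comparisons of neighbouring rows within a library, with 0 differences below 0. The tRNA row mt-Tf, 68 bases long, and the 12S rRNA row mt-Rnr1, 955 bases long, differed by at most 0.0153% in any library. The rows mt-Td and mt-Co2, and mt-Tk, mt-Atp8, mt-Atp6 and mt-Co3, held the same number in 11 of 11 libraries. The tRNA rows mt-Tg, mt-Tr, mt-Th and mt-Tl2 each lay within 1% of the next row in every library. In all, 10 rows, mt-Tf, mt-Rnr1, mt-Tv and mt-Rnr2 on the plus strand and mt-Tq, mt-Ta, mt-Tn, mt-Tc, mt-Ty and mt-Ts1 on the minus strand, had windows that covered the 16S rRNA gene mt-Rnr2. These 10 rows held 67903 to 551574 counts each and made up 95.2% to 97.8% of the summed count of the 37 rows. The other 27 rows held 26 to 14449.

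**Figure D1:**
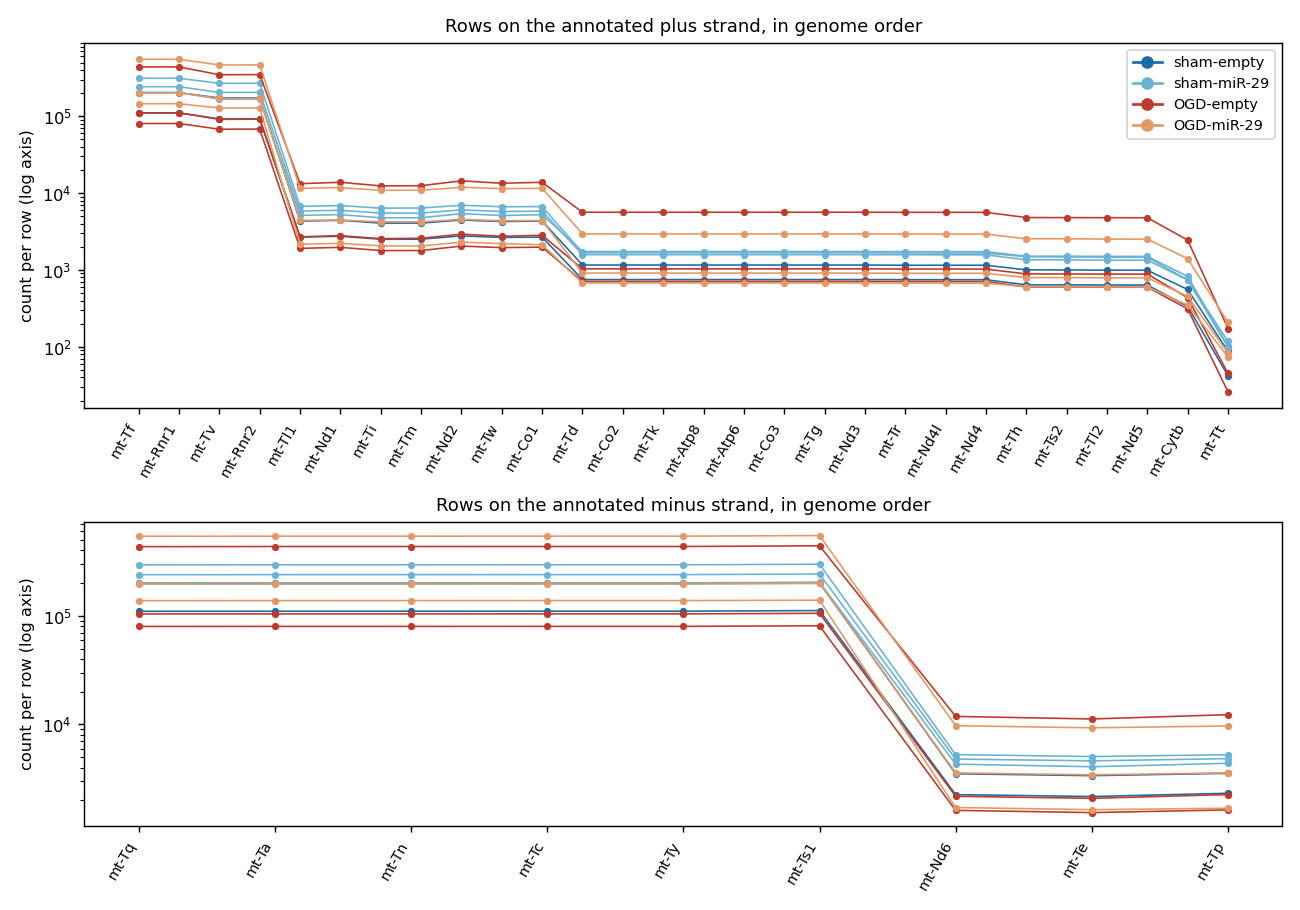
Count of each of the 37 mitochondrial rows (log axis) in genome order, 1 line per library, coloured by group, with the plus strand above and the minus strand below. Counts run flat across neighbouring genes and drop in steps after mt-Rnr2, mt-Co1, mt-Nd5, mt-Cytb and, on the minus strand, mt-Ts1.

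Because the rows nest, the difference between a row and the next one removes the reads that both hold. Such differences gave 24 counts, called segments here and named for their first row. A further pair of differences isolated the rRNA genes (mt-Rnr1 row minus mt-Tv row, and mt-Rnr2 row minus mt-Tl1 row). The far end of the next row's window can lower these differences by at most 0.876% and 0.695% of their value. Reads of the rRNA gene that reach into the next row are lost as well, and their number is not known. A segment holds reads that touch the stretch from its first gene to the next row's window and do not reach into that window. The minus-strand rows and the plus-strand rows held nearly equal counts over the same region. The mt-Ts1 row was 0.952 to 1.01 times the mt-Tf row across libraries. Its window lies within that of mt-Tf, yet its count was the higher in 5 of 11 libraries. By these windows, rows on opposite strands do not hold just the same reads. The strand setting of the counting is not given, and with near-equal counts the strand of the RNA behind a row cannot be told. Whether segments on opposite strands that cover the same bases share part of their reads cannot be told. They come from the same libraries and the same stretch, so they are not read as separate measurements.

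The tRNA genes that the results on segments turn on are given here as the reference has them (GENCODE M21, GRCm38, 5′ to 3′ on the gene's own strand), with the anticodon in capitals. The gene mt-Tn (tRNA for asparagine, chrM:5089-5159, minus strand) and the gene mt-Tc (cysteine, chrM:5192-5257, minus strand) flank the gap that holds the origin of light-strand replication. The gene mt-Tt (threonine, chrM:15289-15355, plus strand) is the last plus-strand gene before the control region, and its window reaches past the gene into that region, so counts of the gene and the region cannot be separated.
mt-Tn: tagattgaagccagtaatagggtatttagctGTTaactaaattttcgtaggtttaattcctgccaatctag
mt-Tc: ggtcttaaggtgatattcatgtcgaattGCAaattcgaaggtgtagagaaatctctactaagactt
mt-Tt: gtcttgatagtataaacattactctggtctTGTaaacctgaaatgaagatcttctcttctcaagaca

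Between mt-Td and mt-Nd4l the table held almost no reads of its own. The 10 segments of this stretch cover mt-Co2 and mt-Co3, subunits of cytochrome c oxidase, mt-Atp8 and mt-Atp6 of ATP synthase, mt-Nd3 and mt-Nd4l of complex I, and 4 tRNA genes. Their summed count was 2 to 18 per library, or 0.282% to 0.777% of the mt-Td row, and 5 of them were at 0 in every library. A single segment held at most 14 counts in a library, the mt-Nd3 segment. The protein rows from mt-Co2 to mt-Nd4 therefore differed by at most 0.777% and repeat the reads of mt-Nd4, mt-Nd5 and mt-Cytb. This low stretch matches 7 unprocessed pseudogenes on chromosome 1 (GRCm38, minus strand, 24611535 to 24616197), of which 0 are rows of the table. The copies match 681 of 684 bases of mt-Co2 without a mismatch (Gm28661), 678 of 681 of mt-Atp6 (Gm10925), 783 of 784 of mt-Co3 (Gm28437), 294 of 297 of mt-Nd4l (Gm10222) and the first 876 of 1378 bases of mt-Nd4 (Gm28439). The copy of mt-Nd3 (Gm28438, 345 bases) and that of the last part of mt-Co1 (Gm29216, 483 bases) each have 1 mismatch. How reads that match 2 places were counted is not given in the sources used here, and their part in the low stretch was not tested.

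These stretches show how little separates gene and copy, with the base that differs in capitals (5′ to 3′ on the gene's strand, GENCODE M21). The mt-Nd3 stretch is chrM:9459-9519 and its copy is chr1:24613059-24613119 on the minus strand. The mt-Co1 stretch is chrM:6390-6450 and its copy is chr1:24616128-24616188 on the minus strand.
mt-Nd3: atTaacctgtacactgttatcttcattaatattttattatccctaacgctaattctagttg
Gm28438: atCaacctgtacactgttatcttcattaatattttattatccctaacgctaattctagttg
mt-Co1: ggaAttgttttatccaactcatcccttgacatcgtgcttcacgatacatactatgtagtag
Gm29216: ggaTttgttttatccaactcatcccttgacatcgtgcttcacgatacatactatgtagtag
The genes mt-Atp8 and mt-Atp6 overlap over the 43 bases of chrM:7927-7969 (plus strand), shown next, and the copy Gm10925 starts with the same 43 bases.
mt-Atp8 and mt-Atp6: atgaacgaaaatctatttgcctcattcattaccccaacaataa

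Per kb of segment, the 16S rRNA gene stood far above the rest. Its mean level in sham-empty was 59202 CPM (counts scaled to library size with TMM) per kb, against 18689 for 12S rRNA, 1163 for mt-Co1, 247 for mt-Cytb, 114 for mt-Nd5 and 69.9 for mt-Nd4. The mt-Nd5 segment spans 2403 bases, against 1824 for its gene. Parts of mt-Co1 and mt-Nd4 have copies on chromosome 1, whose part in these levels was not tested. The libraries had been depleted of ribosomal RNA, so the rRNA levels are those left after depletion, whose efficiency was not measured here. The lowest row of all by mean CPM was mt-Tt (33.5). On the plus strand the highest was the rRNA row mt-Rnr1 and the highest tRNA row mt-Tf (81190.0), while on the minus strand mt-Ts1 was highest (80241) and mt-Te lowest (1466).

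As a whole, the mitochondrial rows were lowest in OGD-empty. The 37 rows summed to 477.8 and 530.3 counts per 100 counts outside them in sham-empty, and to 418.3, 360.9 and 366.6 in sham-miR-29. After OGD the sums were 323.1, 135.7 and 272.2 with the empty virus, and 463.4, 365.6 and 285.7 with miR-29. All 3 OGD-empty libraries lay below both sham-empty libraries, and so did all 3 sham-miR-29 libraries. The OGD-empty and OGD-miR-29 ranges overlapped. Means were 504.1 ± 37.2 (SD, n = 2), 381.9 ± 31.6 (n = 3), 243.6 ± 96.9 (n = 3) and 371.6 ± 89.0 (n = 3) in that order. Rows share reads, so these sums count reads more than once. The largest row alone had means of 50.9, 38.8, 24.7 and 38.0 counts per 100 outside the rows, in the same order. In exact two-sided permutation tests, p was 0.2 for OGD-empty against sham-empty, which is the smallest value that 3 against 2 libraries allow. The exact permutation p was 0.9 for OGD-miR-29 against sham-miR-29 and 0.2 for OGD-miR-29 against OGD-empty, where 0.1 is the smallest possible. For sham-miR-29 against sham-empty the exact permutation p was 0.2, also the smallest value possible there. Bulk counts cannot tell fewer mitochondrial transcripts per cell from fewer cells that are rich in them. The 10 rows over mt-Rnr2 made up 95.2% to 97.8% of these sums, in libraries depleted of ribosomal RNA. The parts of that depletion and of the counts outside the rows in these differences were not tested.

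**Figure D2:**
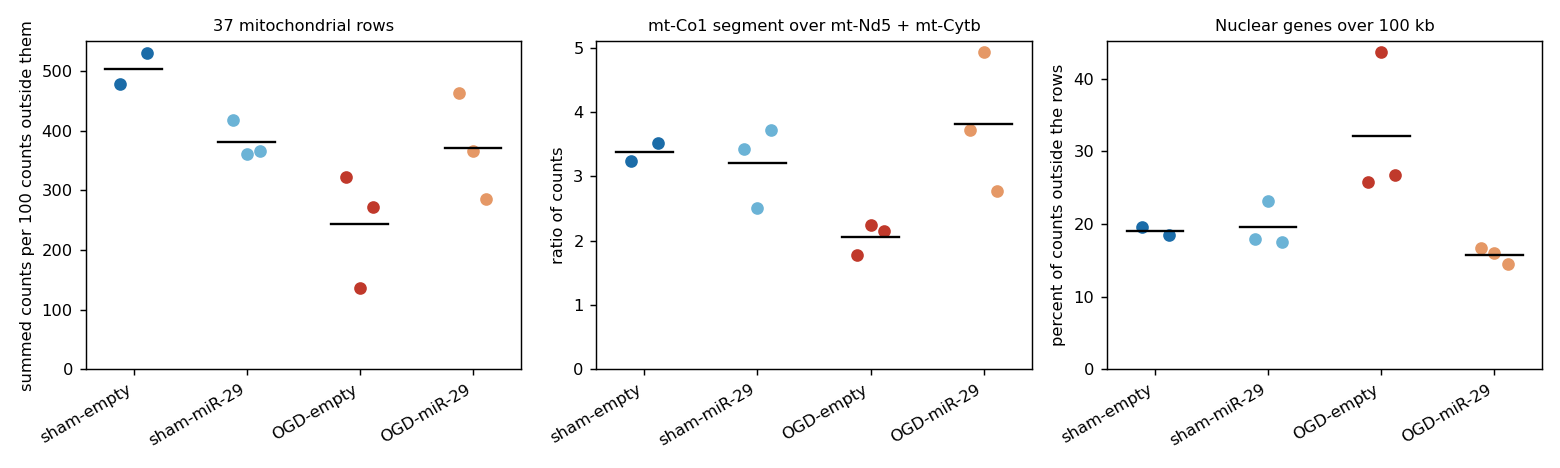
Each point is 1 library and each line a group mean. The panels give the summed count of the 37 rows per 100 counts outside them, the ratio of the mt-Co1 segment to the mt-Nd5 and mt-Cytb segments, and the percent of counts outside the rows that fell in nuclear genes over 100 kb; OGD-empty is lowest, lowest and highest by mean.

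The OGD-empty libraries also held more of their other counts in long nuclear genes. Genes over 100 kb (1823 genes) took 25.8%, 43.7% and 26.8% in OGD-empty, against 14.5% to 23.2% in the other 8 libraries. These are shares of the counts in the 11319 of 12108 genes outside the rows that had an annotated length. The library with the lowest mitochondrial sum, OGD-empty replicate 2, had the highest share, but OGD-miR-29 replicate 3, with a sum below that of OGD-empty replicate 1, had the lowest. The part of this in the mitochondrial values was not tested. Summed counts were 1337564 to 6616920 per library, of which 57.6% to 84.1% were in the 37 rows, and counts outside them were 231500 to 1362484. A read can count in several of the 37 rows, so this is a share of counts and not of reads. The largest mitochondrial row alone held 13.6 to 53.6 counts per 100 counts outside the rows. All 6 neuron markers listed were rows of the table, as were 4 of 6 astrocyte markers (not Gfap or Sox9), 3 of 6 for oligodendrocytes, 3 of 6 for microglia, 0 of 5 for endothelium and 2 of 5 for fibroblasts and mural cells. Neuron markers summed to 938 to 1215 CPM in OGD-empty, 714 to 790 in sham-empty, 684 to 885 in sham-miR-29 and 584 to 701 in OGD-miR-29, and microglial markers to 18.8 to 28.0 in OGD-empty and 28.1 to 40.8 elsewhere. Map2 and Syt1 held the most counts of the 6 neuron markers in each OGD-empty library. For OGD with the empty virus, 4 of the 6 had estimates above 0, and 0 markers of either list were called. The microglial marker Aif1 shares its window with Prrc2a, which held 3.43 times its count. Astrocyte markers summed to 32.5 to 49.3 CPM in OGD-empty and 32.8 to 45.1 elsewhere. The part of the markers in the results was not tested. Of the markers in the table, 0 were at 0 in all libraries.

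In empty-virus cultures, counts over the 16S rRNA gene, over the tRNA gene mt-Tc and from mt-Tt onwards were lower after OGD. Of the 37 rows 11 were called lower and 0 higher (edgeR's quasi-likelihood F test, adjusted p under 0.05 by Benjamini-Hochberg), where 3.61% of all genes tested were called lower. These were the 10 rows whose windows cover mt-Rnr2, and mt-Tt. The 16S row mt-Rnr2 fell (log2 fold change -1.11 ± 0.30 SE, edgeR adjusted p = 0.0395), as did the 12S row mt-Rnr1 (-1.06 ± 0.31, 0.0491) and mt-Tt (-1.12 ± 0.27, 0.0259). The other called rows were mt-Tf and mt-Tv, which repeat the plus-strand rRNA counts, and mt-Tq, mt-Ta, mt-Tn, mt-Tc, mt-Ty and mt-Ts1. The latter share the minus-strand counts over the rRNA genes. Log2 fold changes of these rows were -1.11 to -1.06. Of the 13 protein rows 0 were called. Their estimates were -0.81 for mt-Nd1, -0.77 for mt-Co1, -0.76 for mt-Nd2, -0.78 for mt-Nd6, -0.38 for mt-Cytb, -0.29 for mt-Nd5 and -0.28 for each of mt-Co2, mt-Atp8, mt-Atp6, mt-Co3, mt-Nd3, mt-Nd4l and mt-Nd4. All 37 estimates were below 0, with a median of -0.77 against 0.02 over all genes tested. The calls of the 10 rows over mt-Rnr2 were lost when 8 of the 11 libraries were left out 1 at a time. Without either sham-empty library 0 rows were called. Without any 1 of the 3 sham-miR-29 libraries, OGD-empty replicate 2 or 3, or OGD-miR-29 replicate 2, 1 row was called, mt-Tt. Without OGD-miR-29 replicate 1 or 3 there were 11 and without OGD-empty replicate 1 there were 21.

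The segments showed which stretches carried that difference. Of 26 segments 12 had enough counts to be tested, and 4 were called lower in OGD-empty than in sham-empty, where 3.56% of all genes in that fit were called lower. The mt-Tq and mt-Rnr2 segments, both called, cover the 16S rRNA gene on opposite annotated strands in the same libraries. Whether they share part of their reads cannot be told. The 4 are thus not read as separate measurements. The 16S rRNA segment mt-Rnr2 held 89378 and 97938 CPM in sham-empty and 51834, 29916 and 47681 in OGD-empty. It held 75480, 62440 and 67469 in sham-miR-29 and 83559, 65515 and 60707 in OGD-miR-29, so all 3 OGD-empty libraries lay below the other 8. Its log2 fold change was -1.12 ± 0.26 (edgeR adjusted p = 0.0205), and the call was lost without sham-empty replicate 1 (edgeR adjusted p = 0.115), sham-empty replicate 2 (0.204) or OGD-empty replicate 2 (0.0656). The part of rRNA depletion in this difference was not tested.

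The mt-Tc segment, on the minus strand at chrM:5160-5257 with the tRNA gene for cysteine and the gap beside it, fell most among the called segments. It held 61.7 and 54.4 CPM in sham-empty and 26.6, 17.2 and 19.8 in OGD-empty. With miR-29 the values were 41.0, 36.5 and 36.5 after sham treatment and 44.8, 42.1 and 50.5 after OGD. These rest on 37 to 244 counts per library. OGD-empty again lay below all other libraries (log2 fold change -1.42 ± 0.23, edgeR adjusted p = 0.00241), and the call was lost only without sham-empty replicate 1 (edgeR adjusted p = 0.0688).

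The mt-Tt segment held 41.8 and 50.4 CPM in sham-empty and 26.7, 11.7 and 24.1 in OGD-empty. In sham-miR-29 it held 37.5, 39.2 and 30.3 and in OGD-miR-29 38.2, 32.7 and 35.6, so OGD-empty was lowest without overlap. Its log2 fold change was -1.12 ± 0.27 (edgeR adjusted p = 0.0247). The mt-Tq segment, the minus-strand counts over the first 3842 bases with both rRNA genes, changed by -1.09 ± 0.27 (edgeR adjusted p = 0.0278). The call of mt-Tt was lost without sham-empty replicate 1 or 2 (edgeR adjusted p = 0.112 and 0.284), and that of mt-Tq without either of these (0.130 and 0.222) or without OGD-empty replicate 2 or 3 (0.0841 and 0.0593).

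Protein-coding stretches differed among themselves. The segment of mt-Co1, the catalytic subunit of cytochrome c oxidase, held 1914 and 1839.9 CPM in sham-empty and 1265, 575 and 961 in OGD-empty, with no overlap between these groups (log2 fold change -1.01 ± 0.32, edgeR adjusted p = 0.0790, not called). The minus-strand counts over the same gene, the mt-Ts1 segment, are not read as a separate measurement and gave -1.04 ± 0.33 (edgeR adjusted p = 0.0837). The mt-Nd5 segment, of a proton-pumping subunit of complex I, held 298 and 252 CPM in sham-empty and 360.4, 128 and 239 in OGD-empty. The mt-Cytb segment, of the cytochrome b subunit of complex III, held 292 and 272 in sham-empty and 352, 129 and 209.6 in OGD-empty. In both, OGD-empty replicate 1 was the highest of all libraries and OGD-empty replicate 2 among the lowest, so the groups overlapped. Log2 fold changes were -0.17 ± 0.35 for mt-Nd5, -0.29 ± 0.37 for mt-Cytb and -0.20 ± 0.44 for mt-Nd4, and none passed the test (edgeR adjusted p from 0.671 to 0.826). The 12S rRNA segment mt-Rnr1 gave -0.81 ± 0.31 (edgeR adjusted p = 0.129).

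**Figure D3:**
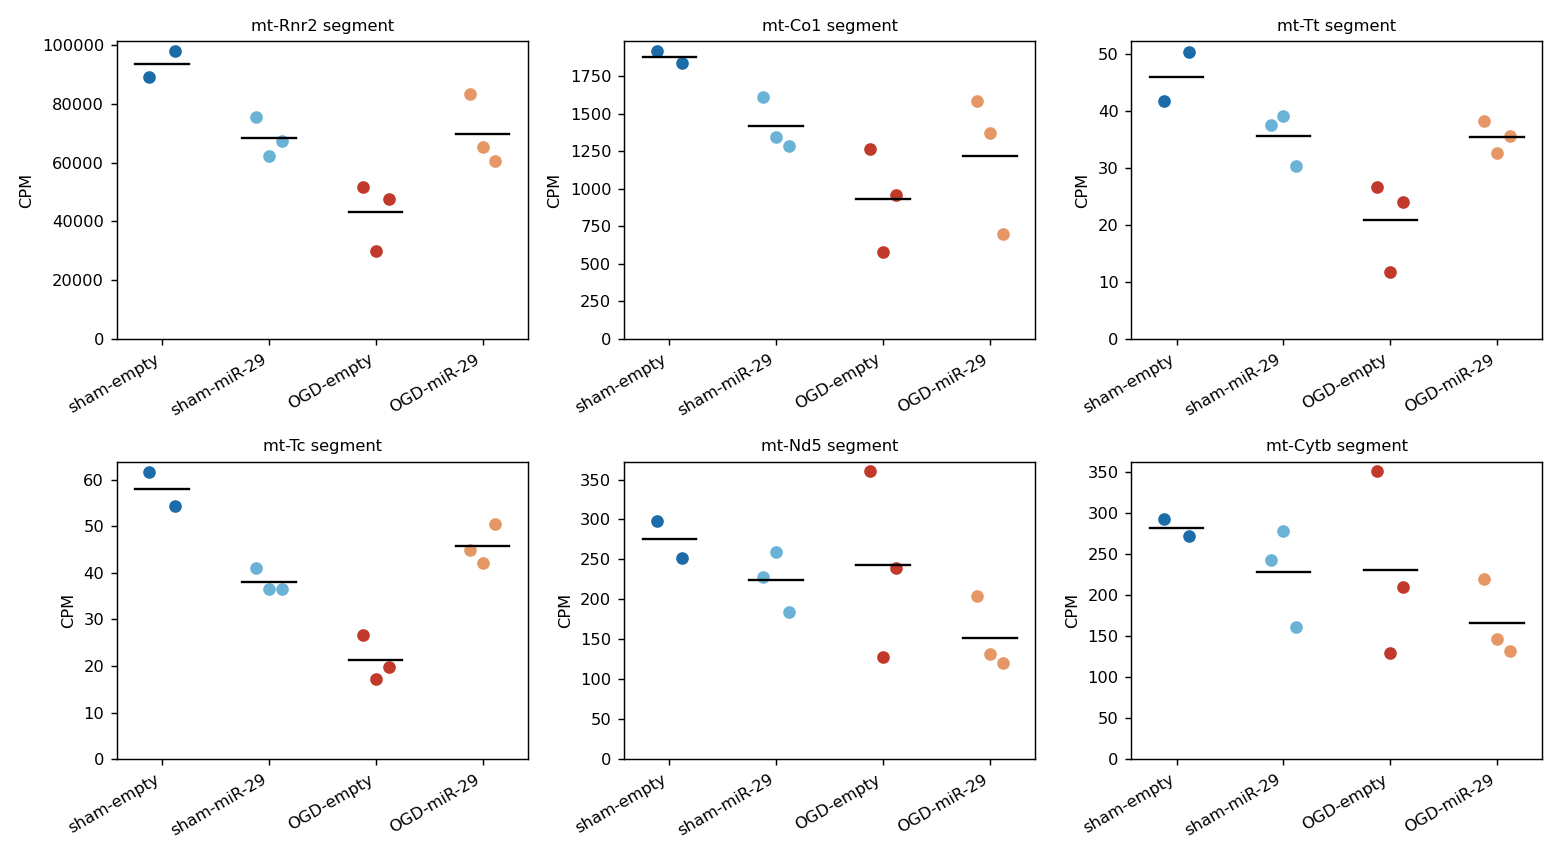
CPM of 6 mitochondrial segments, 1 point per library, with a line at each group mean. For mt-Rnr2, mt-Tt and mt-Tc the 3 OGD-empty libraries lie below the other 8, whereas for mt-Nd5 and mt-Cytb OGD-empty overlaps the other groups.

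The balance between these stretches within a library does not depend on how libraries are scaled. Counts of the mt-Co1 segment were 3.24 and 3.51 times those of mt-Nd5 and mt-Cytb together in sham-empty, and 1.78, 2.24 and 2.14 times in OGD-empty. With miR-29 they were 3.42, 2.503 and 3.72 times after sham treatment and 3.73, 4.94 and 2.78 times after OGD. OGD-empty was below every other library. This ratio was chosen after its values were seen, so it was not tested. On the minus strand, the segment over mt-Co1 (mt-Ts1) was 10.99 and 10.2 times that over mt-Nd2 (mt-Ta) in sham-empty and 5.36, 8.27 and 5.97 times in OGD-empty. With miR-29 this was 9.06, 7.59 and 12.7 times after sham treatment and 11.7, 17.3 and 13.2 times after OGD. Here OGD-empty replicate 2 lay above sham-miR-29 replicate 2. The ratio of 16S to 12S rRNA counts was 4.84 and 5.68 in sham-empty and 3.61, 5.24 and 4.56 in OGD-empty. It was 5.19, 4.43 and 5.93 with miR-29 after sham treatment and 5.28, 5.28 and 7.20 after OGD, so OGD-empty overlapped both sham groups.

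In cultures with miR-29, no mitochondrial difference between OGD and sham passed the test. Of 37 rows 0 were called by edgeR or by DESeq2 (0 at an unadjusted p under 0.05), where 0.0165% of all genes tested were called. The estimates had a median of -0.28, and 32 of 37 were below 0. Both rRNA rows had estimates near 0 (mt-Rnr1 0.00 ± 0.28, mt-Rnr2 0.02 ± 0.27), while mt-Nd4 gave -0.47 ± 0.31 and mt-Cytb -0.38 ± 0.30. Of the 12 segments 0 were called by either tool, with the largest estimates at mt-Ta (-0.72 ± 0.49) and mt-Nd5 (-0.55 ± 0.31). With standard errors of this size, changes near those of the empty-virus cultures cannot be told from none at the protein-coding stretches.

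Between the viruses in sham cultures, 0 rows and 0 segments were called by edgeR or DESeq2 (0 rows and 1 segment at an unadjusted p under 0.05 in edgeR). In this contrast 0% of all genes tested were called (405 genes at an unadjusted p under 0.05). All 37 rows were lower with miR-29 than with the empty virus by estimate, with a median of -0.38, and the mt-Tc segment had the lowest estimate (-0.61 ± 0.22).

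After OGD, several stretches were higher with miR-29 than with the empty virus. Of the 37 rows 1 was called higher, mt-Tt (0.74 ± 0.24, edgeR adjusted p = 0.0210), where 17.2% of all genes tested were called higher. With the replicate number, which marks the day of dissection, as a block, 3 rows were called: mt-Tt, mt-Tv and mt-Rnr2 (0.70 ± 0.26, edgeR adjusted p = 0.0376). Without OGD-empty replicate 1 there were 11, all higher, and without OGD-miR-29 replicate 1 there were 0. Without OGD-empty replicate 2 the calls had the other direction: the 16 plus-strand rows from mt-Td to mt-Cytb were called lower with miR-29 (mt-Cytb -0.63, mt-Nd4 -0.83) and 0 higher, and mt-Tt was not called (0.44, edgeR adjusted p = 0.108). Of the 12 segments 4 were called higher, where 17.3% of genes in that fit were. These were mt-Tc (1.08 ± 0.20, edgeR adjusted p = 0.000827), mt-Tn (1.45 ± 0.46, 0.0192), mt-Tt (0.74 ± 0.24, 0.0208) and mt-Rnr2 (0.70 ± 0.24, 0.0283). The mt-Tn segment holds only 3 to 30 counts per library. The mt-Tn call was lost without OGD-miR-29 replicate 1 or 3 (edgeR adjusted p = 0.0778 and 0.0819), and the mt-Tt call without OGD-miR-29 replicate 1 (0.0557) or OGD-empty replicate 2 (0.108). For mt-Tc the call held when any 1 of the 11 libraries was left out. The mt-Rnr2 call was lost without OGD-empty replicate 2 (0.46, edgeR adjusted p = 0.166), OGD-empty replicate 3 (0.0507) or OGD-miR-29 replicate 1 or 2 (0.0707 and 0.0583).

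The estimates of mt-Nd4 (-0.76 ± 0.39), mt-Nd5 (-0.67 ± 0.31), mt-Cytb (-0.47 ± 0.33) and mt-Ta (-0.74 ± 0.49) were below 0 in the same contrast. None of these was called, with edgeR adjusted p of 0.106 to 0.277. With the replicate block 7 segments were called: mt-Nd4 (-0.78 ± 0.25, edgeR adjusted p = 0.0186) and mt-Nd5 (-0.65 ± 0.25, 0.0499) were lower and mt-Tc, mt-Tn, mt-Tt, mt-Tq and mt-Rnr2 higher. Without OGD-empty replicate 2, 4 segments were called lower, mt-Nd4, mt-Nd5, mt-Cytb and mt-Ta, and 2 higher, mt-Tc and mt-Tn. The median over the 37 rows was 0.11, against 0.02 for all genes tested.

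**Figure D4:**
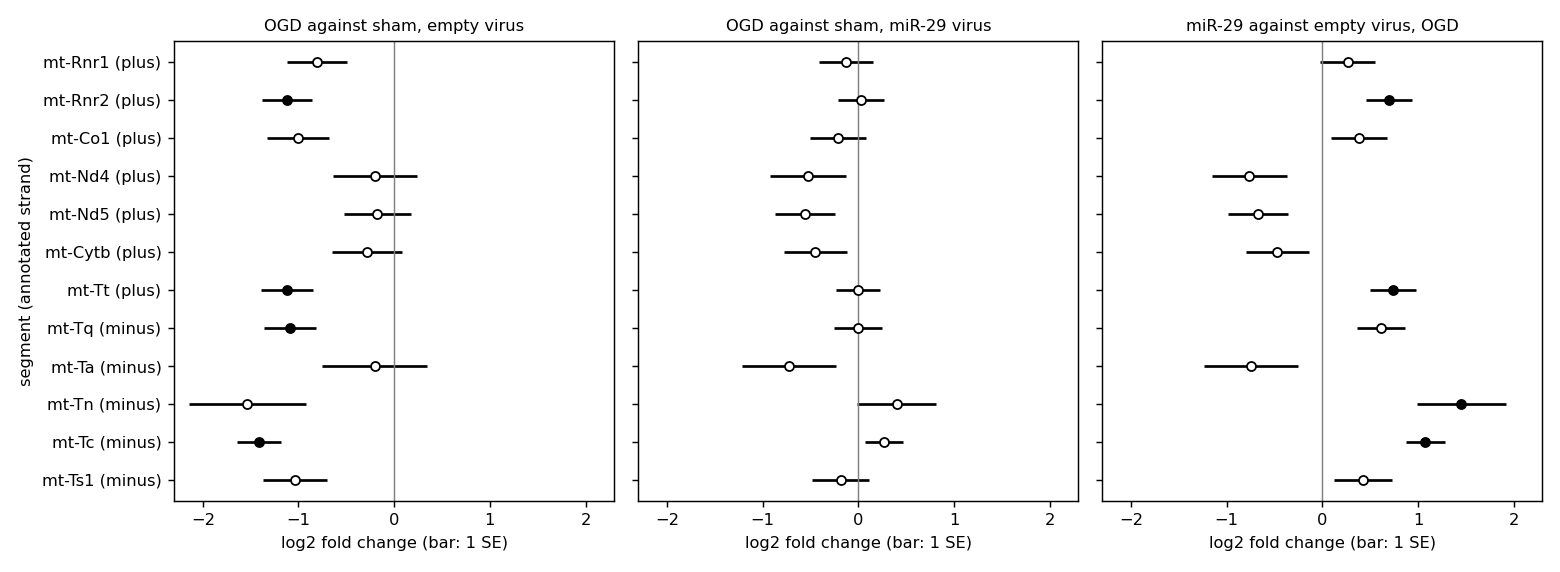
Log2 fold change and 1 SE of the 12 tested segments in 3 contrasts, in genome order by strand, with filled points where the edgeR adjusted p was under 0.05. The mt-Rnr2, mt-Tt and mt-Tc points are filled on the lower side for OGD in empty-virus cultures and on the higher side for miR-29 after OGD, and 0 points are filled for OGD with miR-29.

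The test of whether the OGD difference depended on the virus called 0 of 37 rows (11 at an unadjusted p under 0.05, smallest edgeR adjusted p = 0.0550, DESeq2 called 10), where 8.38% of all genes tested were called. With the replicate block it called 2 rows, mt-Tt (1.14 ± 0.37, edgeR adjusted p = 0.0418) and mt-Tv (1.16 ± 0.39, 0.0497), and without OGD-empty replicate 1 it called 11. Of the 12 segments 2 were called, both with the OGD difference more positive under miR-29, where 4.89% of genes in that fit were called higher. They were mt-Tc (1.68 ± 0.30, edgeR adjusted p = 0.00794) and mt-Rnr2 (1.15 ± 0.36, 0.0490). The mt-Rnr2 call was lost when 9 of the 11 libraries were left out 1 at a time (largest edgeR adjusted p = 0.198), the mt-Tc call in 0 of 11. With the block these and mt-Tn and mt-Tt were called. The contrasts share the OGD-empty libraries, so their calls are not independent of each other.

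The nuclear genes that make and process mitochondrial RNA were read from the same fit. The list held 52 genes of mitochondrial transcription, RNA processing, RNA decay and DNA maintenance, of which 30 were in the table and 29 tested. After OGD in empty-virus cultures 4 fell, where 3.61% of all genes tested were called lower, and 0 rose, with a median log2 fold change of -0.23 against 0.02 over all genes. They were Ptcd3, a protein of the small mitochondrial ribosomal subunit (-1.40 ± 0.26, edgeR adjusted p = 0.00494), Grsf1, an RNA-binding protein of mitochondrial RNA granules (-1.09 ± 0.29, 0.0347), Mto1, which modifies mitochondrial tRNAs (-0.80 ± 0.21, 0.0361), and Tbrg4, a FASTK-family RNA-binding protein (-1.45 ± 0.42, 0.0486). Without sham-empty replicate 1 none of the 4 was called. Leaving out 1 of the 11 libraries at a time lost the call of Ptcd3 in 1 case, of Grsf1 in 4, of Mto1 in 5 and of Tbrg4 in 7, and the Tbrg4 call was also lost with DESeq2's size factors or with scaling from rows outside the mitochondrial genome. The summed level of the 30 genes was 354 to 374 CPM in OGD-empty, 527 to 553 in sham-empty, 412 to 489.6 in sham-miR-29 and 502 to 555 in OGD-miR-29, so OGD-empty was lowest without overlap. Mto1 held the highest count of the 30 in every library. Its window holds Eef1a1 on the other strand, with 1.28 times its count. Whether the sum separates the groups without Mto1 was not tested.

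Between the viruses after OGD 6 of the 29 rose and 2 fell with miR-29, where 17.2% and 19.9% of all genes tested were called higher and lower. Those with the smallest adjusted p were Mto1 (0.92 ± 0.19, edgeR adjusted p = 0.00155), Ptcd1 (0.99 ± 0.25, 0.00546), Ptcd3 (0.85 ± 0.23, 0.00771), Tbrg4 (1.11 ± 0.34, 0.0167), Hsd17b10, a subunit of mitochondrial RNase P (0.93 ± 0.34, 0.0341), and Peo1, the mitochondrial DNA helicase (1.08 ± 0.39, 0.0345). The 2 that fell were Mtpap, the mitochondrial poly(A) polymerase (-0.98 ± 0.36), and Lrpprc, which stabilises mitochondrial mRNAs (-0.58 ± 0.22). The calls of Mtpap, Lrpprc, Peo1 and Hsd17b10 were lost with DESeq2's test, and in 7, 6, 3 and 4 of the 11 cases with 1 library left out, whereas those of Mto1, Ptcd1 and Ptcd3 were lost in 0. In the same contrast the neuron markers Syt1 (-1.82), Rbfox3 (-1.75), Map2 (-1.16) and Snap25 (-0.63) were called lower with miR-29 and Tubb3 (0.87), Aif1 of microglia (1.54) and Sox10 of oligodendrocytes (1.14) higher, and their part in these values was not tested. A window neighbour held over 0.5 of the row's count for the markers called higher, Tubb3 (Gm20388), Aif1 (Prrc2a and Gm23442) and Sox10 (Polr2f), and for none of the 4 called lower. Tbrg4, Grsf1, Ptcd3 and Mto1 were also called higher in the interaction (4 of 29), where 4.72% of all genes tested were, with 7, 5, 1 and 4 of the 11 cases losing the call. With miR-29, 0 of 29 were called for OGD, where 0.0165% of all genes tested were, and 0 between the viruses in sham, where 0% were (edgeR, 0 and 2 of the 29 at an unadjusted p under 0.05). Windows that reach past a gene touch these rows too: a gene in the window held over 0.5 of the row's count for Ptcd3 (Immt and Gm22486), Grsf1 (Rufy3), Mto1 (Eef1a1), Tbrg4 (Nacad and Snora5c), Ptcd1 (Bud31), Hsd17b10 (Ribc1) and Peo1 (Lzts2 and Mrpl43), but for neither Lrpprc nor Mtpap.

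Of 13 regulators of mitochondrial biogenesis listed, 11 were tested. After OGD with the empty virus 1 was called lower and 0 higher, where 3.61% of all genes tested were called lower. Between the viruses after OGD 2 were called higher and 3 lower, near the shares over all genes (17.2% and 19.9%). Esrra, a nuclear receptor that drives genes of oxidative metabolism, fell after OGD with the empty virus (-1.24 ± 0.28, edgeR adjusted p = 0.0165) and was higher with miR-29 after OGD (1.45 ± 0.24, 0.000571). The first call was lost without sham-empty replicate 1 or 2. Its window holds Prdx5, which had over 0.5 of its count. After OGD the deacetylase gene Sirt3 was higher with miR-29 (0.94 ± 0.23), and the coactivators Ppargc1a (-1.11 ± 0.31) and Ppargc1b (-2.17 ± 0.32) and the receptor Esrrg (-1.27 ± 0.41, lost in 3 of 11 cases) were lower. In the interaction Esrra was called higher (1.77 ± 0.36) and Ppargc1b lower (-2.28 ± 0.54), with 2 and 3 of 11 cases losing the call. The Sirt3 row shares its window with Psmd13 and Ric8.

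The authors' deposited tables give the mitochondrial rows the opposite sign. In the authors' deposited table of OGD-empty against sham-empty, 36 of 37 mitochondrial rows had a log2 fold change above 0 (median 0.45, smallest false discovery rate 0.665), mt-Tt being below at -0.73. In the authors' deposited table of OGD-miR-29 against sham-empty, 37 of 37 were above 0 (median 0.60, smallest false discovery rate 0.970). A fit of the 6 columns of the first comparison with TMM and the replicate block, the sham-empty replicate 3 column included, gave 36 of 37 above 0 (median 0.47) and lay within 0.105 of the authors' deposited table for every row. The same fit of 5 columns without that one gave 0 of 37 above 0 (median -0.93). For the second comparison the refit gave 37 of 37 above 0 (median 0.62) with the column and 0 of 37 (median -0.40) without it.

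**Figure D5:**
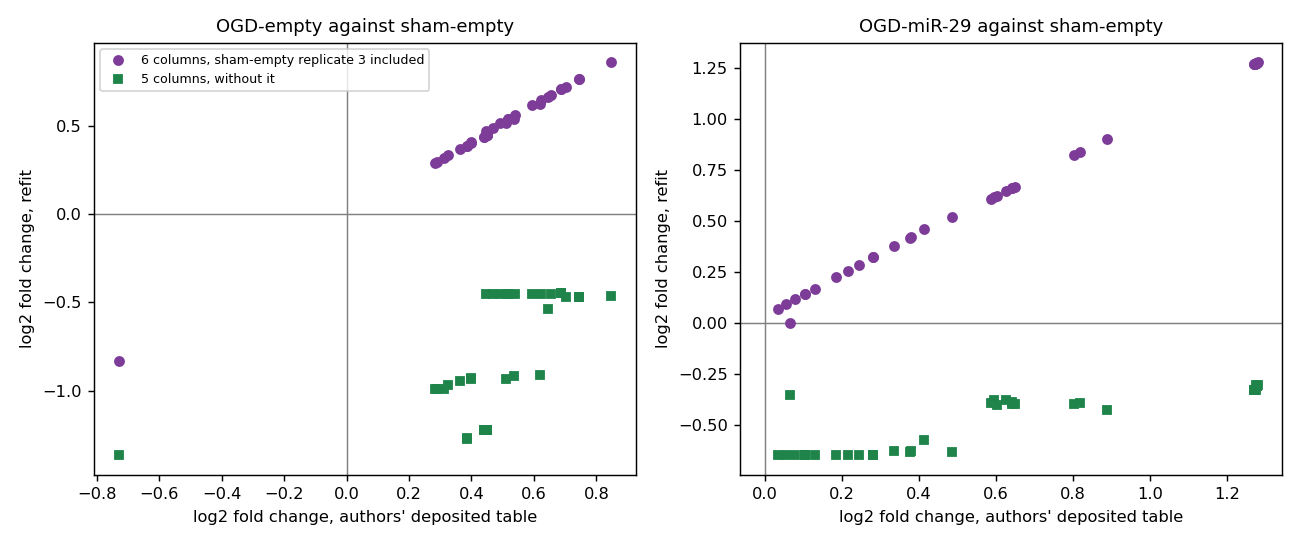
Log2 fold change of each mitochondrial row in the authors' deposited table (x axis) and in a refit (y axis), with the sham-empty replicate 3 column (circles) or without it (squares). The circles follow the authors' values and the squares all lie below 0.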

How the data were processed

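The authors deposited raw RNA-seq counts per gene symbol for 12 libraries. The submitters' processing notes list build mm10 and the tools featureCounts 1.4.3-p1, STAR 2.5.0a and edgeR, with no roles. The annotation, strand setting and treatment of multiply mapped reads are not given in the sources used here. Per the file headers, the authors' 2 comparison tables hold log2 fold changes, log2 CPM, a likelihood ratio score, p-values and false discovery rates. The sham-empty replicate 3 column, deposited among the counts, is a score that sums to 22859 and was left out.

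Counts were fitted over the whole table with edgeR 4.0.16 (R 4.3.3): TMM scaling, filterByExpr (12119 of 12145 genes kept), robust quasi-likelihood F test, 4 group means, no replicate block, 5 contrasts, Benjamini-Hochberg adjustment. A second fit replaced the 37 rows by 26 segments (12094 features tested). The SE was obtained as the absolute log2 fold change over sqrt(F). The scripts were tested on simulated data. Copies were found with blastn 2.17.0 among GENCODE M21 transcripts. Alternatives used DESeq2 1.42.0 (its size factors, its Wald test), scaling from other rows, no filter, the block, and each library left out. Same-numbered libraries share a dissection day by the design text. Correlations of their deviations from group means were -0.10 to 0.25, against -0.27 to 0.22 between different numbers. The libraries' totals were 1337564 to 6616920, and precision covers the spread between cultures.

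The rule for named genes took the rRNA and protein rows, tRNA rows that were called, extreme or within 1% of a neighbour, called segments and the 4 largest, and up to 6 called list genes; the mt-Ta and mt-Ts1 segments, and the list genes that fell, were named after their values were seen. Mitochondrial rows, lists and tests were chosen with earlier results of these data known.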

Additional observations from a re-analysis of the deposited data

Results flagged for a closer look

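For 2 segments the OGD difference itself differed between the viruses in the interaction test. In the mt-Tc segment the log2 OGD difference was 1.68 higher with miR-29 than with the empty virus (edgeR adjusted p = 0.00794), being -1.42 with the empty virus and 0.27 with miR-29. This call held with any 1 of the 11 libraries left out (largest edgeR adjusted p = 0.0435). In the mt-Rnr2 segment the difference was 1.15 (edgeR adjusted p = 0.0490), from -1.12 and 0.03, and the call was lost when 9 of the 11 libraries were left out 1 at a time (largest edgeR adjusted p = 0.198, without sham-empty replicate 2). The causes were not tested.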

How the results depend on the processing

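Limits are the 2 usable sham-empty libraries, reads shared between rows, and counts of 3 to 244 per library in the mt-Tc and mt-Tn segments. Of 216 values under alternatives other than leaving out a library, 203 kept their call or moved by less than the replicate spread (counts within 1.5 times). With 1 library left out, 335 of 484 values did so. Of the calls of single rows or segments 0 changed sign, a check that does not cover the direction of counts of calls. With DESeq2 size factors 3 rows were called for miR-29 against empty virus after OGD. DESeq2's Wald test called 11 there and 10 in the interaction. With the replicate block, genes called numbered 1369 for OGD with the empty virus, 5 for OGD with miR-29 and 1861 in the interaction, rows 3 and 2 and segments 7 and 4 for the virus after OGD and the interaction. With scaling from other rows, mt-Rnr1 and mt-Tf lost their calls (-1.04, edgeR adjusted p = 0.0507). A refit chosen after seeing the data, with the sham-empty replicate 3 column, moved the median of the rows for OGD with the empty virus from -0.77 to 0.47. The replicate block moved no other count of calls by over 1.5 times. The cause of these shifts was not tested.

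Leaving out 1 library gave 12 to 984 genes, 0 to 21 rows and 0 to 7 segments for OGD with the empty virus. It gave 0 to 16 rows for the virus after OGD (the 16, without OGD-empty replicate 2, lower with miR-29 and not higher), 64 to 1516 genes, 0 to 11 rows and 1 to 4 segments in the interaction, and 2 to 21 genes for OGD with miR-29.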

Other observations

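The balance of counts between the annotated strands differed by replicate number and not by group. The mt-Ts1 row was 0.984 to 1.01 times the mt-Tf row in the 8 libraries of replicates 1 and 2, and 0.952 to 0.955 times in the 3 libraries of replicate 3, which come from 3 different groups.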
